A study of Mus musculus with 11 samples.

Results

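Il6ra and Il6st, which encode the IL-6 receptor alpha chain and its signalling partner gp130, were followed across 3 populations of CD4+ T cells from mouse spleen. They were taken by RefSeq transcript from a table of 1246 probe sets, in which 908 genes could be named. Il6ra had 3 probe sets on the same transcript, and the one with the highest mean over all 11 arrays (6.33 on the log2 scale, against 6.24 and 6.20) stands for the gene. Il6st had 1 probe set. The probe set was thus chosen by its mean over all arrays, which does not use the populations, but both genes were picked with earlier results of these arrays known.

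The populations were sorted by flow cytometry from female C57BL/6 mice, for which the labels name no transgene or treatment. They were CD25+ CD45RBlow cells that the labels call a Treg population (n = 3, replicates 1, 2 and 4), CD25- CD45RBlow cells that they call activated or memory (n = 4), and CD25- CD45RBhigh cells that they call naive (n = 4). They are called Treg, CD45RBlow and CD45RBhigh below. The descriptions of the CD25- samples name the spleen of naive female C57BL/6 mice, 4 to 6 weeks old. Those of the Treg samples name the population and the replicate alone. No age is given for the Treg samples, so age and population cannot be told apart there. Each sample has 1 array, of a custom chip for genes of glycosylation and for heavily glycosylated proteins. Whether replicates are different mice is not stated, and the p-values then refer to the spread among these arrays, which may be technical. Arrays of the same replicate number moved together, as did those of other numbers in the same set (1 and 2, or 3 and 4), and earlier results of these arrays set replicates 1 and 2 apart from 3 and 4, so the members are also given within each of these sets.

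IL-6 binds first to its alpha chain, which has no signalling activity of its own, and the pair then recruits gp130, whose associated JAK kinases activate STAT3. A cell without the alpha chain can still respond to IL-6 bound to soluble receptor if it carries gp130, which is called trans-signalling. gp130 is also shared by the receptors for IL-11, IL-27, LIF, oncostatin M and CNTF. In CD4+ T cells IL-6 is known for turning naive cells towards Th17 and follicular helper fates and away from induced regulatory T cells, and activated T cells are known to lose the alpha chain from their surface.

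Il6ra and Il6st were both lower in CD45RBlow than in CD45RBhigh cells. RefSeq places the 250 bases before the start of each gene, shown here because the levels of both moved in the same direction in that comparison, at chr3:89913197-89913446 on the minus strand for Il6ra and at chr13:112463820-112464069 on the plus strand for Il6st (build GRCm38.p6). Capitals mark matches on either strand to any of 4 motifs: TTCNNNGAA (STAT), GTAAACA (forkhead), CACCC (KLF) and GGGCGG (GC box).
Il6ra: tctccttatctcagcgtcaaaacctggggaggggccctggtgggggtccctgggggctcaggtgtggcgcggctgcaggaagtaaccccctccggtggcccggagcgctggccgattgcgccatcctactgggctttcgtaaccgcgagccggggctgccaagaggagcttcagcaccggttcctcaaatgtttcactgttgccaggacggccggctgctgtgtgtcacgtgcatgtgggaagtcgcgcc
Il6st: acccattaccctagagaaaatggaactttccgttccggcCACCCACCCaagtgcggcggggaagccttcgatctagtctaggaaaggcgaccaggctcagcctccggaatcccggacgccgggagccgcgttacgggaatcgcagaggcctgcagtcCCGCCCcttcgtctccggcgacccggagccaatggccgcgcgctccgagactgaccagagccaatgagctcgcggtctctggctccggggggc

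The Il6st stretch held 2 matches to CACCC, which share a base, and 1 to GGGCGG. The Il6ra stretch held 0 matches to the 4 motifs. Among 32851 promoters of the same length CACCC occurred in 52.0%, GGGCGG in 32.7%, TTCNNNGAA in 7.02% and GTAAACA in 3.17%. The Il6ra stretch held 18 CG dinucleotides and the Il6st stretch 26, against a median of 6 over all promoters. A match describes the letters only, and the arrays did not measure binding.

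In CD45RBhigh cells the Il6ra probe set read 6.84, 6.97, 6.80 and 6.65 in replicates 1 to 4, on the log2 scale. In CD45RBlow cells it read 6.21, 6.20, 5.94 and 6.04, and in Treg cells 6.24 in replicate 1, 5.98 in replicate 2 and 5.80 in replicate 4. Every CD45RBhigh array lay above every array of the other populations, whereas the CD45RBlow and Treg arrays overlapped. The population means were 6.81 ± 0.13 (SD, n = 4), 6.10 ± 0.13 (SD, n = 4) and 6.00 ± 0.22 (SD, n = 3).

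The Il6st probe set read 10.33, 10.13, 10.13 and 10.49 in CD45RBhigh replicates 1 to 4. It read 9.74, 9.68, 9.56 and 9.60 in CD45RBlow replicates 1 to 4, and 10.07, 9.96 and 9.88 in Treg replicates 1, 2 and 4. No array of a population overlapped with those of another, with CD45RBhigh highest, Treg between and CD45RBlow lowest. The means were 10.27 ± 0.17 (SD, n = 4), 9.97 ± 0.10 (SD, n = 3) and 9.65 ± 0.08 (SD, n = 4). The gap between the lowest CD45RBhigh array (10.13) and the highest Treg array (10.07) was narrower than the spread within either population.

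**Figure D1:**
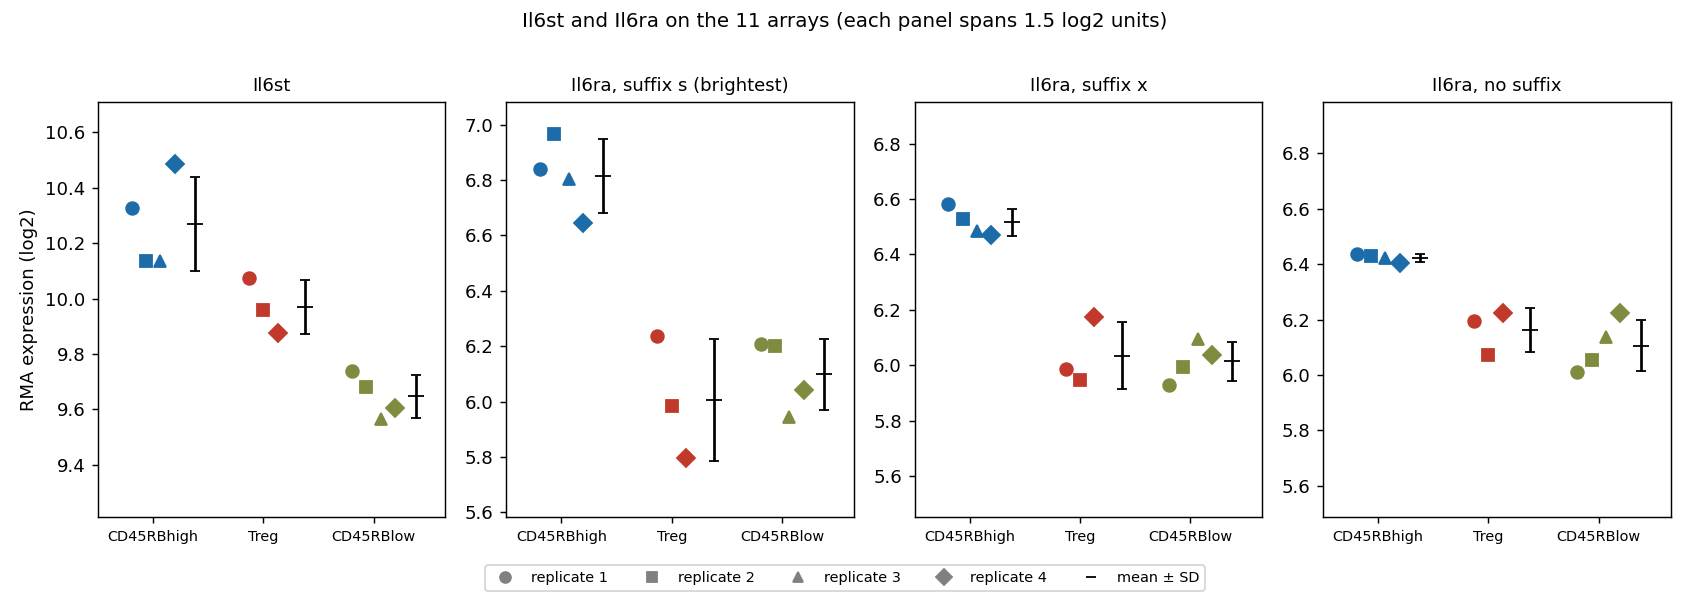
Expression (RMA, log2, vertical axis) of the Il6st probe set and of the 3 Il6ra probe sets on each array, by population, with marker shapes for the replicate number and bars for mean ± SD (n = 4, 3 and 4). The 3 populations are separate for Il6st, while for each Il6ra probe set CD45RBhigh stands above Treg and CD45RBlow, which overlap.

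The comparison of CD45RBlow with CD45RBhigh cells sets memory-type against naive-type CD25- cells. Il6ra was 1.64-fold lower in CD45RBlow cells (log2 difference -0.72, SE 0.10, 95% interval -0.95 to -0.49, limma adjusted p = 0.000675). Il6st was 1.54-fold lower (log2 difference -0.62, SE 0.09, 95% interval -0.81 to -0.43, limma adjusted p = 0.000481). Both members therefore fell, where 12.6% of all 1246 probe sets passed the threshold of 0.05 in either direction (157, or 271 in the blocked fit, which adds a term for the replicate number). Of all probe sets 4.98% were lower and 7.62% higher in CD45RBlow cells, so 60.5% of calls were higher, a share that was 43.2% after repeated quantile normalization and 77.8% after cyclic loess, while both members stayed lower and called. Neither member overlapped between the groups, which held at 17.8% of probe sets. Il6ra passed within replicates 1 and 2 (-0.70) and within replicates 3 and 4 (-0.73), but within replicates 3 and 4 its other probe sets did not (-0.41 with suffix x, limma adjusted p = 0.0633, and -0.23 with no suffix, adjusted p = 0.224). The Il6st call ended in replicates 3 and 4 alone (-0.73, limma adjusted p = 0.0752).

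The comparison of Treg with CD45RBhigh cells sets CD25+ against naive-type cells. Il6ra was 1.75-fold lower in Treg cells (log2 difference -0.81, SE 0.11, 95% interval -1.06 to -0.56, limma adjusted p = 0.000303), and it passed the threshold under all 26 alternatives, each of which changed 1 choice, also within replicates 1 and 2 (-0.80) and within replicates 3 and 4 (-0.93). Within replicates 3 and 4 the other Il6ra probe sets did not pass (-0.30 with suffix x, limma adjusted p = 0.147, and -0.19 with no suffix, adjusted p = 0.336). Il6st was 1.23-fold lower (log2 difference -0.30, SE 0.09, 95% interval -0.51 to -0.09), and its limma adjusted p of 0.0461 lay just under the threshold. Of all probe sets 18.9% passed in this comparison (235, or 330 in the blocked fit), 8.59% lower and 10.3% higher in Treg cells. Between the groups 25% did not overlap, as was also so for both members.

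The Il6st call in that comparison was not stable. It was lost under 16 of 24 alternatives, with an adjusted p between 0.0167 and 0.233, while the direction was the same in all 24. It ended without Treg replicate 1 (limma adjusted p = 0.0549), 2 (0.125) or 4 (0.144), without CD45RBlow replicate 1 (0.0586), 2 (0.0615), 3 (0.0544) or 4 (0.0625), and without CD45RBhigh replicate 1 (0.102) or 4 (0.0878). It stayed without CD45RBhigh replicate 2 (0.0362) or 3 (0.0354). Within replicates 1 and 2 the log2 difference was -0.21, and within replicates 3 and 4, with 1 Treg array, -0.43, and neither passed.

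The comparison of Treg with CD45RBlow cells sets both populations of low CD45RB against each other. Here Il6st was called and Il6ra was not, but the members were not tested against each other and their 95% intervals overlapped. Il6ra did not pass (log2 difference -0.09, SE 0.11, limma adjusted p = 0.691), and its 95% interval of -0.34 to 0.16 leaves room for a change of either sign. Il6st was 1.25-fold higher in Treg cells (log2 difference 0.32, SE 0.09, 95% interval 0.12 to 0.53, limma adjusted p = 0.0450). The background was 12.5% of probe sets called (156, or 245 in the blocked fit), 6.74% higher and 5.78% lower in Treg cells, and 21.3% without overlap.

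This call too lay just under the threshold and was lost under 13 of 24 alternatives, with an adjusted p between 0.00682 and 0.451 and the same direction in all 24. It ended without Treg replicate 1 (limma adjusted p = 0.168), 2 (0.110) or 4 (0.0507), without CD45RBlow replicate 1 (0.0566), 2 (0.0774), 3 (0.104) or 4 (0.0976), and without CD45RBhigh replicate 1 (0.0592). Within replicates 1 and 2 the log2 difference was 0.31 and within replicates 3 and 4 it was 0.29, and neither passed. The comparisons of Treg with CD45RBhigh and with CD45RBlow share the Treg arrays, so they are not independent.

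**Figure D2:**
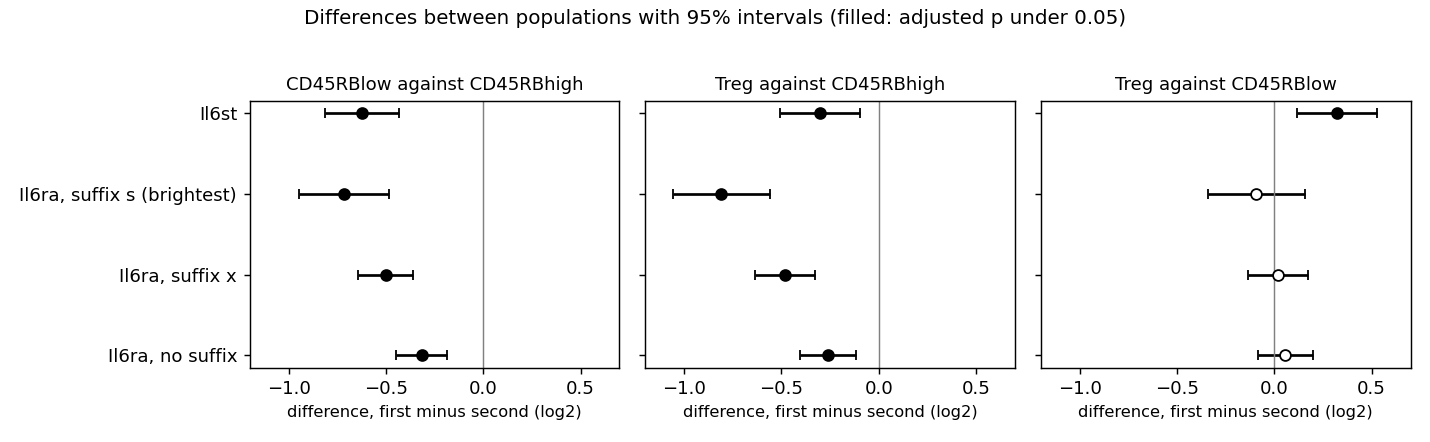
Difference between populations (log2, first minus second, horizontal axis) with its 95% interval for the Il6st probe set and the 3 Il6ra probe sets. All 4 lie below 0 in both comparisons with CD45RBhigh, and in Treg against CD45RBlow the Il6st interval alone lies above 0.

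The 3 Il6ra probe sets gave the same direction against CD45RBhigh cells but different sizes. In CD45RBlow cells Il6ra was lower by a log2 difference of -0.72 with the brightest probe set (ID suffix s), -0.50 with suffix x and -0.32 with no suffix, and limma adjusted p was at most 0.0044. In Treg cells the differences were -0.81, -0.48 and -0.26, with an adjusted p of at most 0.0158. The fold difference in Treg cells was thus 1.75, 1.40 or 1.20 depending on the probe set. In Treg against CD45RBlow cells the sign itself depended on it, at -0.09, 0.02 and 0.06, with 0 of the 3 passed. The suffixes s and x mark probe sets whose signal may not be specific to 1 transcript, and all 3 were designed on 1 transcript, so they are not independent measurements.

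With the suffix x the CD45RBhigh arrays read 6.58, 6.53, 6.48 and 6.47, the CD45RBlow arrays 5.93, 5.99, 6.10 and 6.04, and the Treg arrays 5.99, 5.95 and 6.17. With no suffix they read 6.44, 6.43, 6.42 and 6.40 in CD45RBhigh, 6.01, 6.06, 6.14 and 6.22 in CD45RBlow, and 6.19, 6.07 and 6.22 in Treg cells. In both cases CD45RBhigh stood apart, and Treg and CD45RBlow overlapped. Treg replicate 4 was the lowest Treg array with suffix s (5.80) but the highest with the other probe sets (6.17 and 6.22).

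The change of Il6ra relative to that of Il6st depended on the Il6ra probe set. After each gene was centred on its own mean over the 11 arrays, Il6ra minus Il6st with suffix s was -0.34 ± 0.12 (SD, n = 3) in Treg, 0.08 ± 0.06 (SD, n = 4) in CD45RBlow and 0.17 ± 0.29 (SD, n = 4) in CD45RBhigh cells. With suffix x it was -0.18 ± 0.20, 0.13 ± 0.15 and 0.01 ± 0.18, and with no suffix -0.08 ± 0.13, 0.18 ± 0.16 and -0.12 ± 0.18, so Treg was lowest with suffixes s and x and CD45RBhigh with no suffix. This is a description with no test, and it compares changes, not levels. The wide spread in CD45RBhigh cells with suffix s came with replicate 4, which read the highest Il6st (10.49) and the lowest Il6ra (6.65) of that population.

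Of the 1246 probe sets 51 passed in all 3 comparisons (4.09%), and Il6st was the 1 among them (0.0803%) ordered CD45RBhigh over Treg over CD45RBlow. Without regard to tests, 2 probe sets (0.161%) had that order with no overlap between populations, those of Il6st and of the Notch ligand Jag2. In the blocked fit 2 probe sets were called in this order, Il6st among them. Il6st was called in this order under 7 of 24 alternatives and kept the order of its means in all 24. All 3 Il6ra probe sets and that of Il6st were among the 47 (3.77%) lower than CD45RBhigh in both Treg and CD45RBlow cells.

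**Figure D3:**
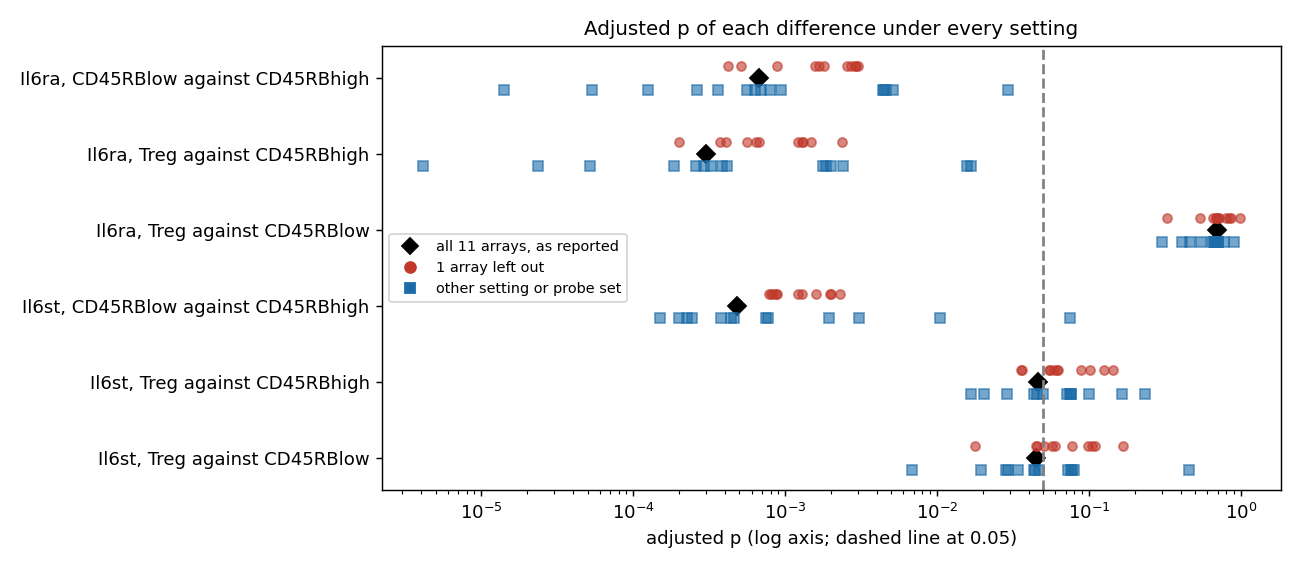
Limma adjusted p (log axis) of each member in each comparison, for all 11 arrays (diamonds), with 1 array left out (circles), and under other settings or Il6ra probe sets (squares), with a dashed line at 0.05. The plotted points of Il6ra against CD45RBhigh all lie left of the line, and Il6st in both Treg comparisons straddles it.

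Other genes of the IL-6 family passed no comparison. Of 13 ligand names 4 were measured, Il6, Il11, Il27 and Il12a, and 0 passed in limma in any comparison. Before adjustment 1 of their differences was under 0.05 in limma, that of Il27 in CD45RBlow against CD45RBhigh cells (-0.20). Il6 itself read 2.38 in Treg, 2.30 in CD45RBlow and 2.35 in CD45RBhigh cells, under the first quartile of all values (3.64), which is read here as near background. Of 8 receptor names 5 were measured, and besides the members 0 passed, although Il27ra was under 0.05 in limma before adjustment in both Treg comparisons (-0.18 in each, adjusted p = 0.143 and 0.191). These were Il27ra, the IL-27 receptor chain that pairs with gp130 (10.32 ± 0.11 in Treg, 10.50 ± 0.07 in CD45RBlow and 10.50 ± 0.11 in CD45RBhigh, SD), Cntfr, the CNTF receptor alpha chain (6.18, 6.16 and 6.21), and Il31ra, which pairs with the oncostatin M receptor (4.47, 4.44 and 4.52). The JAK and STAT genes, Socs3, the sheddases Adam10 and Adam17, and the receptor chains Lifr, Osmr and Il11ra1 were not analysed here.

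Set beside the 30 measured of 36 other class I and II cytokine receptor chains, the members were at the low end against CD45RBhigh cells. In CD45RBlow against CD45RBhigh cells Il6ra had the lowest and Il6st the next lowest difference of all 35 receptors, whose median was -0.05. With the other Il6ra probe sets the gene stood at rank 4 (suffix x) or 7 (no suffix) from the lowest. Beyond the members, Il7r, the IL-7 receptor (-0.50, SE 0.07), and Ifngr2, the interferon-gamma receptor beta chain (-0.59, SE 0.09), fell, while 6 rose, led by Il12rb1, Il2rb and Il2ra (2.05, 2.57 and 2.10). Of all probe sets 4.98% were called lower and 7.62% higher. These places describe the list and carry no test.

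In Treg against CD45RBhigh cells Il6ra stood at rank 2 and Il6st at rank 5 from the lowest of the 35. Of the 30 other chains 6 rose and 3 fell, with a median of 0.01 against -0.04 over all probe sets. Of all probe sets 10.3% were called higher and 8.59% lower. Il2ra, Il12rb1 and Il2rb rose (5.77, 2.12 and 3.51). Il7r fell (-1.28, SE 0.08), as did Ifngr2 (-0.34, SE 0.10) and Il22ra1 (-0.23, SE 0.07), calls that were lost under 11 and 16 of 24 alternatives for the latter pair.

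In Treg against CD45RBlow cells 5 of the 30 rose and 3 fell, with a median of 0.07 against 0.04. Of all probe sets 6.74% were called higher and 5.78% lower. Il2ra (3.67), Il10rb, the shared beta chain of the IL-10 receptor (0.73, SE 0.09), and Il2rb (0.95) rose. Il7r (-0.77, SE 0.08), Il12rb2 (-1.26, SE 0.16) and Il2rg, the common gamma chain (-0.22, SE 0.06), fell. The Treg mean of Il12rb2 (3.56) was near background. The call of Il2rg was lost under 9 of 24 alternatives. Il6st, at 0.32, stood at rank 29 of 35 from the lowest, so 6 receptors had a larger positive difference.

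**Figure D4:**
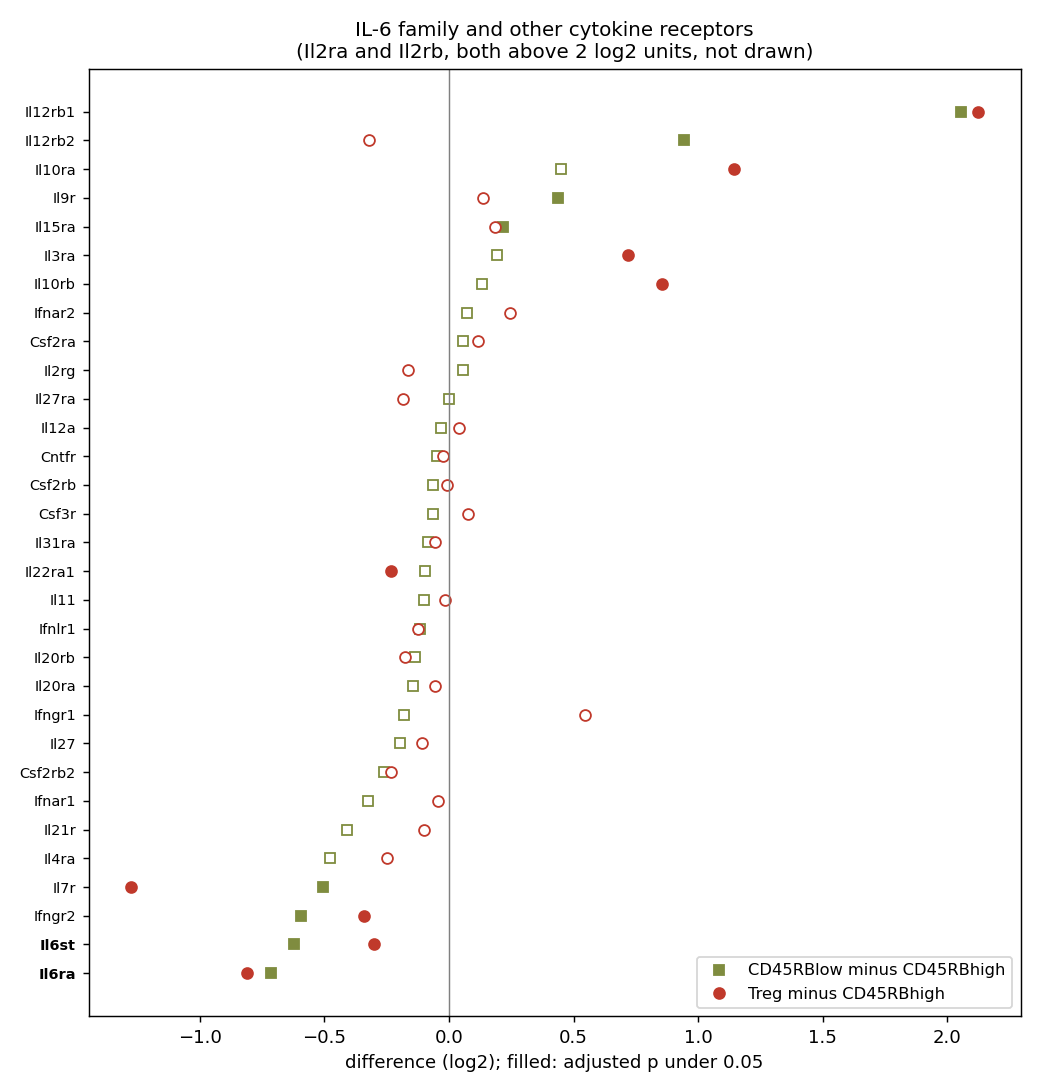
Difference from CD45RBhigh (log2, horizontal axis) for the measured IL-6 family genes and other cytokine receptors above background in at least 1 population, in CD45RBlow (squares) and Treg cells (circles), filled where adjusted p was under 0.05. Il2ra (2.10 in CD45RBlow and 5.77 in Treg cells) and Il2rb (2.57 and 3.51) are not drawn. Il6ra and Il6st are the lowest 2 in CD45RBlow cells; both series share the CD45RBhigh arrays.

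Genes of the helper programmes that IL-6 is known to guide included 7 that rose in CD45RBlow over CD45RBhigh cells and 0 that fell, of 15 measured of 17 names, with a median difference of 0.40 against -0.08 over all probe sets. Of all probe sets 7.62% were called higher and 4.98% lower in that comparison. These shares were 10.3% and 8.59% in Treg against CD45RBhigh cells, and 6.74% and 5.78% in Treg against CD45RBlow cells. Cxcr5, the follicular homing receptor, rose by 2.10 (SE 0.20), Ccr6, a chemokine receptor of Th17 cells, by 2.01 (SE 0.24), and Il1r1, the IL-1 receptor, by 0.98 (SE 0.15), which was 0.63 within replicates 3 and 4. Il21, Il17a, Il22 and Il10 were the other 4, of which Il21, Il17a and Il22 were near background in CD45RBhigh cells, and the call of Il17a was lost under 5 of 23 alternatives. In CD45RBlow replicates 1 to 4 Il17a read 4.38, 5.56, 3.44 and 3.34, and Il22 read 5.12, 5.40, 3.42 and 3.60. Both genes were thus near background in replicates 3 and 4 as well. In Treg against CD45RBhigh cells 4 rose and 1 fell (median 0.36 against -0.04), with Il10 (3.61), Ccr6 (3.31) and Cxcr5 (2.34) higher and the TGF-beta receptor chain Tgfbr2 lower (-0.89, SE 0.06). In Treg against CD45RBlow cells 3 rose and 3 fell (median -0.02 against 0.04), with Il10 (2.52), Tgfbr1 (1.28) and Ccr6 (1.30) higher and Tgfbr2 (-0.71), Il21 (-2.27, near background in Treg cells) and Il1r1 (-0.62) lower. The call of Il21 was lost under 7 and that of Il1r1 under 8 of 24 alternatives. In CD45RBlow replicates 1 to 4 Il21 read 6.65, 7.39, 4.71 and 4.34, and Il1r1 read 5.58, 5.71, 4.94 and 5.02, so replicates 1 and 2 were the higher ones for both. Within replicates 1 and 2 the differences were -3.39 and -0.98, and within replicates 3 and 4 they were -1.26 and -0.23, where neither passed.

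The sort was checked on genes that the table names. Il2ra, which encodes CD25, read 9.84 ± 0.17 (SD, n = 3) in Treg, 6.17 ± 0.36 (SD, n = 4) in CD45RBlow and 4.07 ± 0.27 (SD, n = 4) in CD45RBhigh cells. The naive markers Ccr7 and Il7r fell in CD45RBlow against CD45RBhigh cells, as Il6ra and Il6st did, and they also fell in Treg against CD45RBhigh cells. Cd44 rose in both CD45RBlow and Treg cells over CD45RBhigh cells (means of 9.31 and 9.25 against 7.81). All 8 measured of 8 memory markers were called higher in CD45RBlow than in CD45RBhigh cells, where 7.62% of all probe sets were. In Treg against CD45RBhigh cells 3 of the 8 were called higher, where 10.3% of all probe sets were, and 5 were not called. The summed level of the 8 markers, on the log2 scale, was 10.1 to 10.8 in CD45RBhigh, 12.8 to 13.3 in CD45RBlow and 11.1 to 11.2 in Treg arrays. The 3 measured of 11 Treg markers (Il2ra, Itgae and Klrg1) summed to 6.44 to 6.97, 8.22 to 9.06 and 11.3 to 11.8 in the same order. Of 7 CD4 T cell markers 0 were measured, so Cd4 and the Cd3 chains were not analysed here, and neither was Foxp3.

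Monocytes and neutrophils also carry the IL-6 receptor. Of 15 myeloid and dendritic markers 9 were measured, and 5 of these (Adgre1, Mrc1, Clec4e, Clec4d and Cd33) were near background in each population. Their summed level, on the log2 scale, was 7.16 to 7.26 in CD45RBhigh, 7.06 to 7.23 in CD45RBlow and 7.13 to 7.25 in Treg arrays, so the ranges overlapped, and Cd209a alone passed, lower in CD45RBlow and Treg than in CD45RBhigh cells, calls that were lost under 9 and 15 of 24 alternatives. The summed level of 3 measured of 8 B cell markers was 7.99 to 8.31 in CD45RBhigh, 7.92 to 8.29 in CD45RBlow and 8.54 to 8.76 in Treg arrays, with Fcer2a near background, Cd72 higher in Treg cells in both comparisons and Cd22 highest in CD45RBlow cells. That of 3 measured of 7 natural killer and CD8 markers was 8.99 to 9.43, 8.09 to 8.60 and 4.56 to 4.99, which followed Klrd1, since Klrk1 and Klra3 were near background. The platelet marker Selp, 1 measured of 5, was 4.62 to 4.79, 4.51 to 4.79 and 4.95 to 5.28. The part of these other markers in the Il6ra and Il6st differences was not tested. In sorted bulk samples fewer cells with a transcript and less of it per cell cannot be told apart.

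The genes most like each member were those with the smallest root mean square difference over the 11 arrays, after each was centred on its own mean. For Il6ra these were Cxcr1, a chemokine receptor (0.15), Galnt4, which starts O-glycans (0.17), Piga, which starts GPI anchors (0.19), Ccr7, the lymph node homing receptor (0.19), and B3galnt2, which extends O-mannose glycans (0.20). A flat gene would stand at 0.39 and the median gene stood at 0.40. Il6st was at 0.27 from Il6ra, rank 23 of 907 genes, but at rank 73 from the suffix x probe set and at rank 531 (0.20) from that with no suffix. With the suffix x probe set Cxcr1 was again the closest (0.14), but with no suffix it was Bmp5 (0.07), where a flat gene would stand at 0.15. Next after Bmp5 came Cd209a (0.08), one of the myeloid and dendritic markers.

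For Il6st the closest were Siglech, a lectin of plasmacytoid dendritic cells (0.14), Ifngr2 (0.15), Chst3, a chondroitin sulfotransferase (0.15), Clec10a, a macrophage lectin (0.17), and Jag2 (0.18), where a flat gene would stand at 0.29 and the median gene also stood at 0.29. Il6ra was at rank 277 of 907 from Il6st. All 5 had their highest mean in CD45RBhigh and their lowest in CD45RBlow cells, a pattern they were chosen for. The mean of Siglech was near background in each population.

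**Figure D5:**
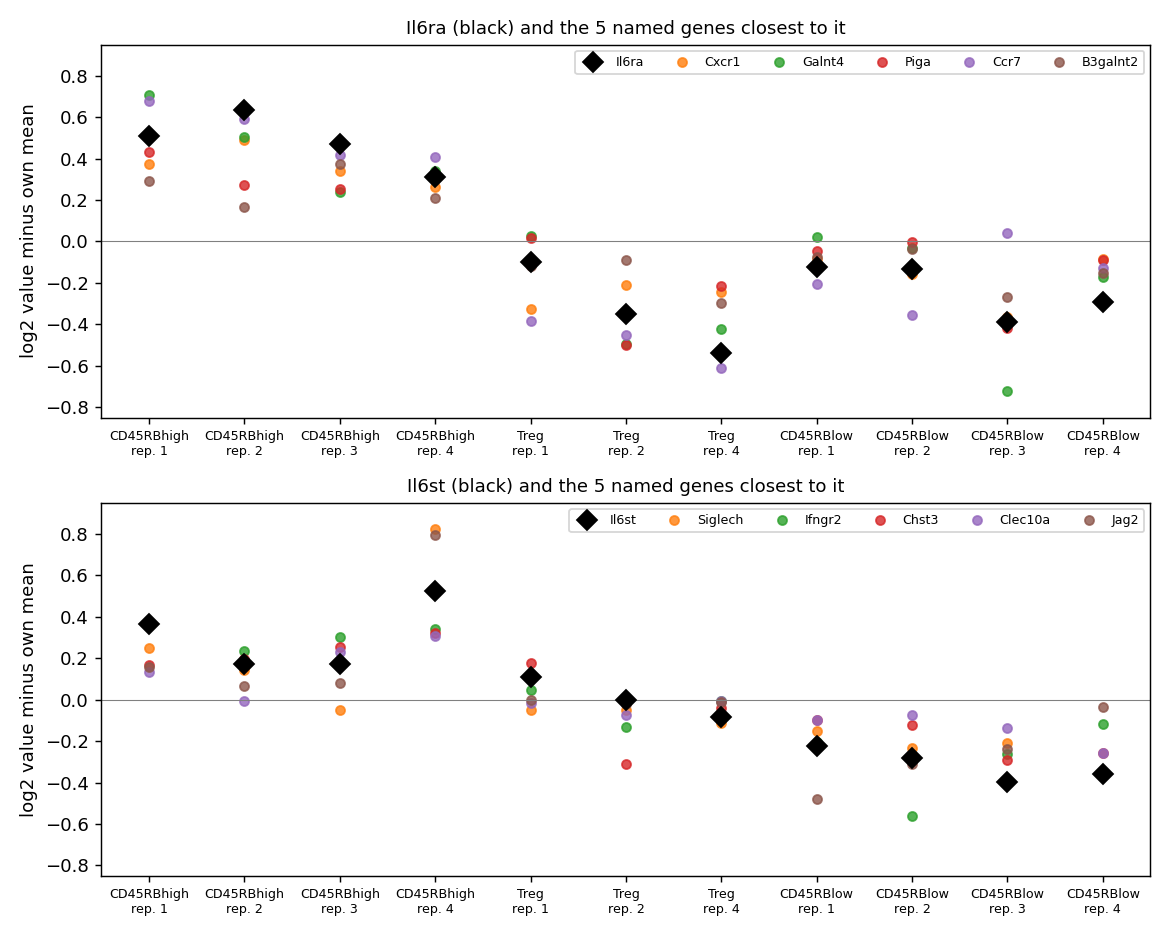
Log2 value on each array minus the gene's own mean over the 11 arrays (vertical axis), for Il6ra and Il6st (black diamonds) and the 5 named genes closest to each (circles). CD45RBhigh arrays of Il6ra and of Il6st lie above 0, Treg and CD45RBlow arrays of Il6ra lie below it, and Treg arrays of Il6st lie around it.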

How the data were processed

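Total RNA of 11 sorted samples was labelled with biotin and hybridised to 1 array each. The deposited values are log2 expression values of 1246 probe sets, which the authors obtained from the array intensities by RMA (Robust Multichip Average), per the series text and the submitters' processing notes (its version is not given in the sources used here). Array medians lay between 4.85 and 4.94 and values between 1.99 and 14.2. Precision is limited by how many arrays there are. No further scaling was applied, and 962 probe sets were named through RefSeq accessions.

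Differences were fitted in limma 3.58.1 (R 4.3.3) on all 11 arrays with 1 mean per population and moderated variances, with Benjamini-Hochberg adjustment over all probe sets at 0.05, after being tested on simulated data. The replicate numbers of the labels may pair the samples: deviations of same-numbered arrays from their population means correlated at 0.31 to 0.56 in all 10 pairs. The main fit and the fits with 1 array left out had no term for the replicate number. The 10 pairs of other numbers within a set (1 and 2, or 3 and 4) also correlated, at 0.20 to 0.58. Their median was 0.28, against 0.46 in same-numbered pairs, but the ranges overlap, so number and set are not told apart by this. The sample titles of a replicate number end in the same digits. Gene lists, markers and members were chosen with earlier results of these data known. Named from the receptor and helper lists were up to 3 genes per comparison and direction by smallest adjusted p, and beside each member the 5 genes closest to it. Alternatives covered the replicate block, replicate sets, scaling, moderation, dim probe sets, tests adjusted over, Il6ra probe set and each array left out. The count of probe sets in the order of Il6st under each alternative, and other Il6ra probe sets within replicate sets, were chosen after seeing the data. The result of 1 marker is not reported here.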

Additional observations from a re-analysis of the deposited data

Results flagged for a closer look

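Cntfr, the CNTF receptor alpha chain, read 6.20, 6.02, 6.20 and 6.21 in CD45RBlow replicates 1 to 4. Replicate 2 lay apart from the others, with a gap to the nearest that was 0.9305 of the whole range of the 4 arrays. Chance alone puts a sample past the cut-off of this check in about 1 in 20 groups, and many groups of the IL-6 family genes were checked.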

How the results depend on the processing

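Il6ra kept its direction and its call under all 26 alternatives against CD45RBhigh cells, from -0.93 to -0.26 in Treg and from -0.84 to -0.32 in CD45RBlow cells. With another probe set and replicates 3 and 4 alone, 2 choices together, it lost the call in Treg (-0.30 with suffix x, -0.19 with none) and in CD45RBlow cells (-0.41 and -0.23). In Treg against CD45RBlow cells it was never called, and its sign changed with the probe set with suffix x (0.021) or no suffix (0.057) and without Treg replicate 4, with 1 array left out giving -0.21 to 0.011. Il6st in CD45RBlow against CD45RBhigh cells kept its call under 23 of 24 alternatives and lost it in replicates 3 and 4 alone (-0.73). Il6st in Treg against CD45RBhigh cells lost its call in replicates 1 and 2 (-0.21) or 3 and 4 alone (-0.43), with only the arrays compared (-0.30), repeated quantile normalization (-0.21), cyclic loess (-0.23), trend and robust moderation (-0.30) and no moderation (-0.30), with 1 array left out giving -0.35 to -0.23. Il6st in Treg against CD45RBlow cells lost it in replicates 1 and 2 (0.31) or 3 and 4 alone (0.29), with array medians centred (0.31), trend and robust moderation (0.32) and no moderation (0.32), with 1 array left out giving 0.27 to 0.37. The cause was not tested.

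With the replicate block no member's call changed, at -0.84, -0.12 and -0.72 for Il6ra and -0.34, 0.29 and -0.62 for Il6st, each in the order Treg against CD45RBhigh, Treg against CD45RBlow, and the CD25- populations. The limma adjusted p of Il6st with the block was 0.0167 in Treg against CD45RBhigh and 0.0469 in Treg against CD45RBlow cells. The block raised the probe sets called to 330 in Treg against CD45RBhigh cells (319 with the replicate set as a covariate). It raised them to 245 in Treg against CD45RBlow (238 with the set) and to 271 in CD45RBlow against CD45RBhigh cells (247 with the set). Replicates 3 and 4 alone, with 1 Treg array assumed to vary like the other groups, gave 88, 49 and 63 calls in the same order. Il6st stood well above the first quartile of all values, while Il6, Siglech and Il12rb2 in Treg cells did not, so little can be read from their differences. Il6ra also stood above it, with means of 6.00 in Treg and 6.10 in CD45RBlow cells. These lay near the means of Cntfr (6.18 and 6.16) and Il12a (5.96 and 5.89), which passed no comparison. Whether Il6ra was near a floor in these populations was not tested.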
